A study of Mus musculus with 8 samples.

Results

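Chemokines are small secreted proteins that guide leukocytes along gradients, and most of them act through G protein-coupled receptors on the migrating cell. In the liver they are made by hepatocytes, Kupffer cells, endothelial cells, stellate cells and infiltrating leukocytes, and those induced by injury bring neutrophils, monocytes and lymphocytes into the tissue. Some are induced through NF-κB or interferon gamma, whereas others are made steadily by stromal cells. The 10 chemokine genes described here (Ccl2, Ccl5, Ccl6, Ccl9, Cxcl1, Cxcl9, Cxcl10, Cxcl12, Cxcl13 and Cxcl16) were found by their symbols among the 33212 genes of the count table. All 10 were among the 15291 genes with enough counts to be tested.

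RNA-seq was performed on the liver of 4 Nnmt KO mice and 4 control mice, with 1 library per sample. Nnmt KO mice carried Alb-Cre, a Cre driven by the albumin promoter and therefore active in hepatocytes, and 2 floxed alleles of Nnmt, which encodes nicotinamide N-methyltransferase. Control mice carried the floxed alleles without Cre, although their labels read WT. Mice of both genotypes were C57BL/6 males, fed for 8 weeks on the MCD diet, a feed without methionine and choline that damages the liver. Their age is not given in the sources used here. No mice on a normal diet were analysed here, so every difference below is one between genotypes under the same diet. Since the table's columns name only the genotype, the 4 libraries of each were given the letters a to d in column order. Total counts were between 75020072 and 87934362 in the Nnmt KO libraries and between 79043675 and 87056991 in the control libraries. A gene with 3 counts then has at most 0.04 CPM (counts scaled to the library total), and low genes near that level are measured with large counting error.

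Nnmt itself (ENSMUSG00000032271, chr9:48591877-48605153) was measured first. From library a to library d, its counts were 9308, 16996, 11611 and 7139 in control and 2910, 3617, 5770 and 5950 in Nnmt KO mice. All Nnmt KO libraries were below all control libraries after normalization, with means of 57.1 ± 23.1 CPM in Nnmt KO and 139 ± 60.4 CPM in control mice (SD, n = 4 each). The gap was narrow, since Nnmt KO library d was at 83 CPM and control library d at 84.9 CPM. The log2 fold change was -1.28 (SE 0.33, adjusted p = 0.123 in edgeR's test), and DESeq2's test gave 0.00458, in a range of 0.00458 to 0.296 over all alternatives. Gene positions here and below are those of GENCODE M21 on GRCm38 (mm10). The CPM were normalized by edgeR's TMM method, and p-values were adjusted over all tested genes.

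Nnmt KO library a stood apart from the other libraries. Its TMM factor was 1.21, whereas the other Nnmt KO libraries had 0.952 to 0.977 and the control libraries 0.876 to 1.06. Its 50 most abundant genes held 31.1% of the counts, the lowest share of the 8 libraries, and its summed hepatocyte markers (76314 CPM) were also the lowest. It was high in summed markers of macrophages, stellate cells and bile duct cells, the last of these led by Spp1 (81.9% of the sum). For this reason many values below are also given without this library.

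The 10 genes covered a wide range of levels. Per kb of annotated exon, Cxcl12 was the most abundant with a mean of 30.7 ± 2.34 CPM per kb (SD, n = 8), followed by Ccl6 (17.2 ± 4.78) and Ccl9 (12.8 ± 1.45), which overlapped and held this order in 7 of 8 libraries. Cxcl12 was above Ccl6 in 8 of 8 libraries, with no overlap of their ranges, and Ccl9 was above Cxcl16 in the same way. The middle of the order was not resolved over all 8 libraries. Cxcl16 (6.99 ± 1.69), Cxcl10 (5.15 ± 1.89), Ccl5 (4.43 ± 0.705), Ccl2 (4.22 ± 1.76), Cxcl1 (3.95 ± 1.47) and Cxcl9 (3.08 ± 0.472 CPM per kb) overlapped with their neighbours. The order of neighbours held in 6 of 8 libraries for Cxcl16 over Cxcl10, and in 5 of 8 for each of the next 4 pairs. Counted by genotype, with no test of the difference, Cxcl1 was above Cxcl9 in 4 of 4 control and 1 of 4 Nnmt KO libraries, and Cxcl16 above Cxcl10 in 2 and 4. Cxcl10 was above Ccl5 in 4 of 4 control and 1 of 4 Nnmt KO libraries, but in 1 and 0 when the longest transcript was taken as the length. Ccl5 over Ccl2 and Ccl2 over Cxcl1 each held in 2 of 4 control and 3 of 4 Nnmt KO libraries. With the longest transcript as the length, Ccl5 over Ccl2 held in 3 of 4 libraries of each genotype. Cxcl13 had the lowest level, 1.51 ± 0.81 CPM per kb. Taken as a sum, the 10 genes amounted to 379 ± 21.3 CPM in the control group and 384 ± 24.6 CPM in the Nnmt KO group (SD, n = 4 each), and Cxcl12 made up 65.9% of it.

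**Figure D1:**
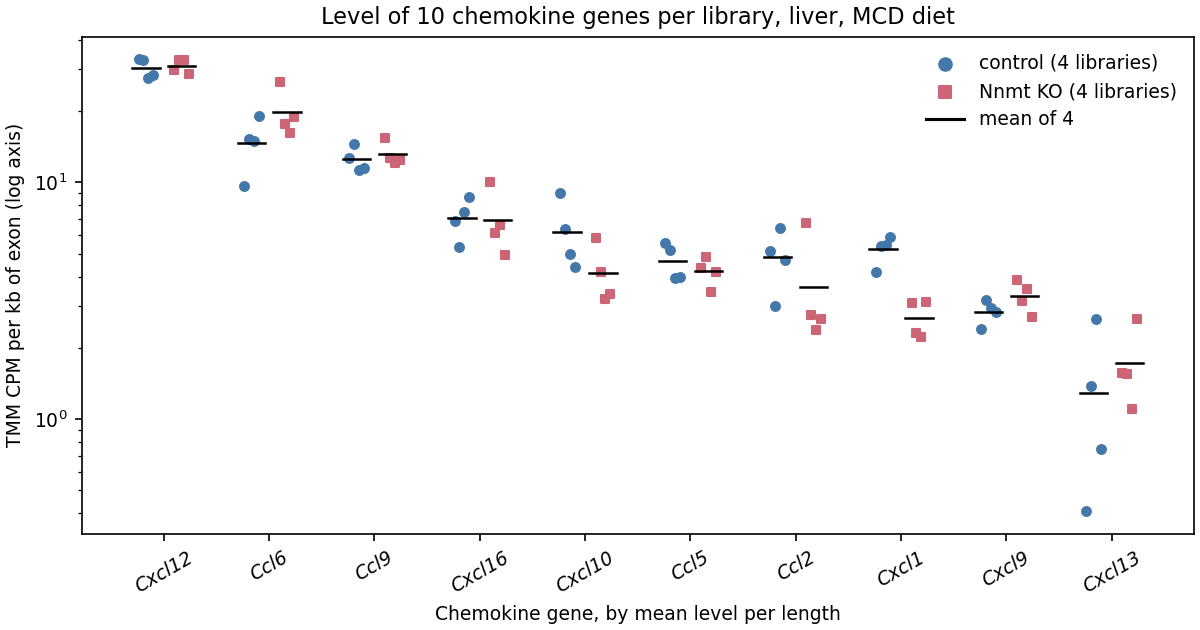
Level per length of the 10 chemokine genes in each library, as TMM-normalized CPM per kb of annotated exon on a log axis, with circles for the 4 control and squares for the 4 Nnmt KO libraries and black lines for the mean of 4. Cxcl12 lies highest, and Cxcl1 is the gene whose Nnmt KO libraries all lie below its control libraries.

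Of the 10 genes, 1 passed an adjusted p of 0.05 by edgeR's quasi-likelihood test. It was Cxcl1, which was lower in Nnmt KO mice. Over all 15291 genes, 49 passed (0.32%), 28 of them higher and 21 lower (0.137%). The 10 genes were chosen with earlier results of these data known, so their count is no test against this share. With scaling by library size only, 22 genes passed, 19 higher and 3 lower, and none of the 10 was among them. Leaving out Nnmt KO library a gave 149 genes, with Cxcl1 among them. At an unadjusted p under 0.05, Cxcl1 and Cxcl10 were lower and no gene of the 10 was higher. Of all genes, 12.6% had such a p, 7.13% (1091) lower and 5.45% (834) higher. With scaling by library size only, the split turned to 620 lower and 818 higher. The libraries of the genotypes did not overlap for 1 of the 10 genes, again Cxcl1, and for 8.16% of all tested genes. A count of 1 or 2 in 10 thus lies near these background shares for the unadjusted p and for non-overlap. The median log2 fold change of the 10 genes was -0.0039, beside 0.02 for all tested genes, and 5 genes lay on each side of 0. Without Nnmt KO library a it was -0.09, with 4 genes above and 6 below 0. In bulk liver, fewer cells of a type and less RNA per cell cannot be told apart, which holds for all values below.

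Cxcl1 (ENSMUSG00000029380, chr5:90891241-90893115, plus strand) encodes a ligand of Cxcr2 that attracts neutrophils. It was at 7.81, 10.1, 10.2 and 11 CPM in control libraries a to d. In Nnmt KO libraries a to d it was at 5.79, 4.31, 4.15 and 5.87 CPM. The highest Nnmt KO library lay below the lowest control library, and library a did not stand apart. The Nnmt KO mean was 51.4% of the control mean, with 5.03 ± 0.924 against 9.78 ± 1.38 CPM (SD, n = 4 each). In edgeR's fit its log2 fold change was -0.96 (SE 0.17, 95% interval -1.33 to -0.58) and edgeR's adjusted p was 0.0496, just under the threshold. The size of the difference moved little, and the log2 fold change stayed between -1.04 and -0.88 in 12 of 12 alternatives, each with an unadjusted p under 0.05. The adjusted p did not stay under 0.05. It was 0.0512 with DESeq2's size factors, 0.0968 without a filter on low counts, 0.16 with scaling by library size only and 7.39e-05 in DESeq2's test. Leaving out Nnmt KO library a gave 0.0283, whereas leaving out any of the other 7 libraries gave 0.0943 to 0.159.

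A close relative of Cxcl1 had another pattern, although the difference between both genes was not tested. Cxcl2, which encodes another Cxcr2 ligand and was picked after its values were seen, begins 10755 bp beyond the end of Cxcl1 on the same strand (chr5:90903871-90905938). Cxcl2 was at 0.446, 0.475, 0.91 and 1.52 CPM in control libraries a to d. It was at 2.83, 0.855, 0.692 and 0.655 CPM in Nnmt KO libraries a to d, so library a was the highest of all 8 and the genotypes overlapped. Between genotypes its log2 fold change was 0.59 (SE 0.55, adjusted p = 0.698 in edgeR's test) and turned to -0.19 without Nnmt KO library a. Cxcr2 was at 0.956 ± 0.456 CPM in the control group and 0.998 ± 0.707 CPM in the Nnmt KO group (SD, n = 4 each). Without Nnmt KO library a the Nnmt KO mean of Cxcr2 was 0.66 ± 0.254 CPM (SD, n = 3), below the control mean. The summed neutrophil markers were 5.35, 8.65, 6.5 and 13.3 CPM in control libraries a to d and 13.6, 7.31, 4.91 and 6.65 CPM in Nnmt KO libraries a to d. These sums overlapped, their most abundant gene was S100a9 (60.1% of the sum), and Ly6g was at 0 in all libraries. Of the 6 neutrophil markers 4 could be tested. None had an unadjusted p under 0.05 by edgeR or DESeq2, beside 12.6% and 14.2% of all tested genes.

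Cxcl9 and Cxcl10 encode ligands of Cxcr3, which is carried by activated T cells and NK cells, and both are known as genes induced by interferon gamma. They are neighbours on the minus strand of chromosome 5, 18558 bp apart (Cxcl9, ENSMUSG00000029417, chr5:92321347-92328079, and Cxcl10, ENSMUSG00000034855, chr5:92346638-92348889). Cxcl10 was at 20.2, 14.2, 11.2 and 9.88 CPM in control libraries a to d. It was at 13, 9.43, 7.21 and 7.6 CPM in Nnmt KO libraries a to d. Nnmt KO libraries b, c and d lay below all control libraries, and library a overlapped with them. The log2 fold change of Cxcl10 was -0.57 (SE 0.25, 95% interval -1.12 to -0.03), and its unadjusted p was 0.0394 in edgeR's test. This unadjusted p stayed under 0.05 in 5 of 12 alternatives. The adjusted p was 0.365, so that the difference did not pass. The log2 value was -0.78 without Nnmt KO library a and -0.31 without control library a, with adjusted p-values of 0.166 to 0.813 over the 8 libraries left out.

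Cxcl9 had a log2 fold change of the other sign, which did not pass either. It was at 7.22, 9.6, 8.89 and 8.55 CPM in control libraries a to d and at 11.7, 9.49, 10.7 and 8.13 CPM in Nnmt KO libraries a to d. Here the log2 fold change was 0.22 (SE 0.15, 95% interval -0.10 to 0.55, adjusted p = 0.569 in edgeR's test), and it was 0.14 without Nnmt KO library a. The ratio of Cxcl10 to Cxcl9 counts within a library needs no scaling. It was 2.8, 1.48, 1.26 and 1.16 in control libraries a to d and 1.11, 0.993, 0.676 and 0.935 in Nnmt KO libraries a to d. All Nnmt KO ratios were below all control ratios, with means of 0.93 ± 0.185 and 1.68 ± 0.763 (SD, n = 4 each). Control library a had the highest ratio, and without it the control mean was 1.3 ± 0.167 (SD, n = 3). This ratio was chosen after the values were seen and is given without a test. It is 1 of 3 ratios of neighbouring genes that were computed, and those of Cxcl1 to Cxcl2 and of Ccl6 to Ccl9 overlapped between genotypes. Cxcr3 was at 1.1 ± 0.47 CPM in the control group and 1.51 ± 0.29 CPM in the Nnmt KO group (SD, n = 4 each).

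Ccl2 (ENSMUSG00000035385, chr11:82035571-82037453, plus strand) encodes the main ligand of Ccr2, which brings monocytes into the injured liver. It was at 5.85, 3.43, 7.3 and 5.35 CPM in control libraries a to d and at 7.65, 3.12, 2.7 and 3 CPM in Nnmt KO libraries a to d. Nnmt KO library a was the highest of all 8, and the other 3 Nnmt KO libraries were below all control libraries. For this gene the log2 fold change was -0.41 (SE 0.34, 95% interval -1.17 to 0.34, adjusted p = 0.66 in edgeR's test). It was -0.24 without control library c, the value nearest to 0 when each library was left out. Without Nnmt KO library a it was -0.90, and its unadjusted p was 0.00309. The adjusted p was 0.119, in a range of 0.119 to 0.896 over all alternatives. Ccr2 was at 3.09 ± 1.48 CPM in the control group and 4.34 ± 1.2 CPM in the Nnmt KO group (SD, n = 4 each).

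Ccl6 and Ccl9 encode ligands of Ccr1 that are made by myeloid cells, and they lie side by side on the minus strand of chromosome 11, 9245 bp apart (Ccl6, ENSMUSG00000018927, chr11:83587882-83593087, and Ccl9, ENSMUSG00000019122, chr11:83572919-83578636). Ccl6 was at 17.2, 27.3, 26.9 and 34 CPM in control libraries a to d and at 47.5, 31.6, 28.9 and 33.8 CPM in Nnmt KO libraries a to d. Control library a was the lowest and Nnmt KO library a the highest, and the genotypes overlapped. The log2 fold change was 0.43 (SE 0.21, 95% interval -0.03 to 0.88, adjusted p = 0.421 in edgeR's test), and it was 0.25 without Nnmt KO library a. Ccl9 ranged from 34.2 to 44.3 CPM in control and from 36.7 to 47 CPM in Nnmt KO mice. For Ccl9 the log2 fold change was 0.07 (95% interval -0.19 to 0.34, adjusted p = 0.84 in edgeR's test), and it turned to -0.01 without Nnmt KO library a.

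Ccl5 (ENSMUSG00000035042, chr11:83525778-83530518, minus strand), a ligand of Ccr1 made by T cells and NK cells among others, ranged from 3.78 to 5.33 CPM in control and from 3.3 to 4.66 CPM in Nnmt KO mice. Between genotypes its log2 fold change was -0.15 (SE 0.18, 95% interval -0.55 to 0.25, adjusted p = 0.779 in edgeR's test), and it ranged from -0.22 (without Nnmt KO library b) to -0.03 (without control library a) when each library was left out. Ccr1 was at 2.05 ± 0.943 CPM in the control group and 2.28 ± 2.14 CPM in the Nnmt KO group (SD, n = 4 each). Library a was at 5.49 CPM of Ccr1, and the other 3 Nnmt KO libraries had a mean of 1.21 ± 0.174 CPM (SD, n = 3), below the control mean.

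Cxcl12, Cxcl13 and Cxcl16 are known less for acute injury than for placing lymphocytes in tissue. Cxcl12 (ENSMUSG00000061353, chr6:117168535-117181367, plus strand), the stromal ligand of Cxcr4, had 226 to 270 CPM in control and 234 to 269 CPM in Nnmt KO mice. Its log2 fold change was 0.03 with a 95% interval of -0.22 to 0.28 (adjusted p = 0.943 in edgeR's test), the narrowest interval of the 10 genes. It turned slightly below 0 when any of Nnmt KO libraries b and c and control libraries c and d was left out. Cxcl16 (ENSMUSG00000018920, chr11:70453983-70459984, minus strand), which is made as a membrane protein and binds Cxcr6, ranged from 16.1 to 26.1 CPM in control and from 15 to 30.2 CPM in Nnmt KO mice. Here the log2 fold change was -0.03 (95% interval -0.50 to 0.43, adjusted p = 0.96 in edgeR's test), and it was -0.27 without Nnmt KO library a. The sign of Cxcl16 turned with scaling by library size only and when any of Nnmt KO libraries b and d and control library d was left out. Cxcr4 was at 4.34 ± 0.881 CPM in the control group and 4.71 ± 2.79 CPM in the Nnmt KO group, and Cxcr6 at 0.325 ± 0.102 and 0.495 ± 0.207 CPM (SD, n = 4 each). Without Nnmt KO library a, which was at 8.56 CPM, the Nnmt KO mean of Cxcr4 was 3.42 ± 1.32 CPM (SD, n = 3), below the control mean.

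Cxcl13 (ENSMUSG00000023078, chr5:95956951-95961068, plus strand) encodes the ligand of Cxcr5 that gathers B cells in follicles. It was at 0.47, 1.58, 3.04 and 0.856 CPM in control libraries a to d and at 1.8, 1.78, 1.27 and 3.05 CPM in Nnmt KO libraries a to d. The control libraries spread widely, and control library c was just below the highest Nnmt KO library. For this gene the log2 fold change was 0.41 (SE 0.49, 95% interval -0.68 to 1.49, adjusted p = 0.773 in edgeR's test), and it ranged from 0.12 (without Nnmt KO library d) to 1.03 (without control library c) when each library was left out. Cxcr5 was low, with 0.279 ± 0.149 CPM in the control group and 0.266 ± 0.0962 CPM in the Nnmt KO group (SD, n = 4 each). The receptors named with the ligands above were picked after their values were seen.

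**Figure D2:**
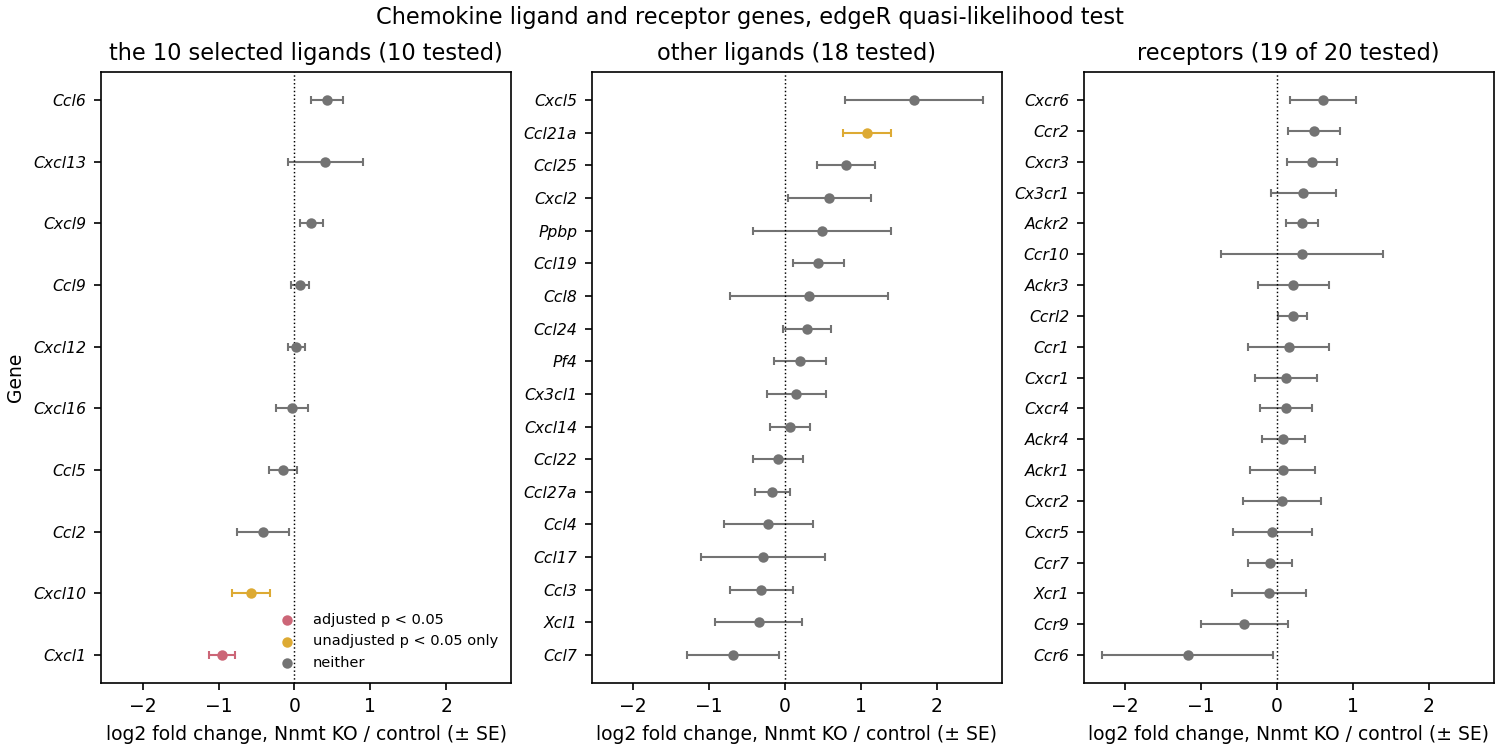
Log2 fold change (Nnmt KO over control, with its SE as bars) of the tested genes among the 10 selected chemokines, the other chemokine ligands and the chemokine receptors (19 of 20 drawn), from edgeR's test on 4 libraries per genotype. Cxcl1 is the gene with an adjusted p under 0.05, and Cxcl10 and Ccl21a have an unadjusted p under 0.05.

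Among 28 other chemokine ligands, 27 were found in the table and 18 were tested, and Cxcl11 was not analysed here. None passed an adjusted p of 0.05 by edgeR's test, 1 was higher at an unadjusted p under 0.05, and DESeq2's test called 1. Over all tested genes 5.45% were higher at an unadjusted p under 0.05 by edgeR, and DESeq2's test called 513 (3.35%), a larger share than edgeR's. The gene was Ccl21a, a lymphatic ligand of Ccr7, with 0.824 ± 0.321 CPM in the control group and 1.74 ± 0.367 CPM in the Nnmt KO group (SD, n = 4 each), and its log2 fold change was 1.08 (adjusted p = 0.18 in edgeR's test and 0.0352 in DESeq2's, in a range of 0.0352 to 0.404 over all alternatives). The value is uncertain, since near-identical copies of Ccl21a exist in the mouse genome and reads could be split between them. The most abundant of these ligands was Cxcl14, with 9.85 ± 1.85 CPM in the control group and 10.3 ± 4.71 CPM in the Nnmt KO group (SD, n = 4 each) and a log2 fold change of 0.07 that turned to -0.30 without Nnmt KO library a. The median log2 fold change of the list was 0.18, beside 0.02 for all tested genes, and without Nnmt KO library a it was -0.24.

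Of 23 chemokine receptors, 20 were tested. None had an unadjusted p under 0.05 by edgeR or DESeq2, beside 12.6% and 14.2% of all tested genes. Their log2 fold changes were above 0 for 15 (75%) and below 0 for 5, with a median of 0.14, where 52.3% of all tested genes were above 0. When Nnmt KO library a was left out, 9 receptors were above and 11 below 0, with a median of -0.05, and 7 of the 15 had turned below 0, where 49.7% of all tested genes were above 0. Cx3cr1, the fractalkine receptor of monocytes and macrophages, had the highest CPM, with 3.56, 3.97, 8.51 and 8.56 CPM in control libraries a to d and 15.5, 6.84, 4.54 and 4.31 CPM in Nnmt KO libraries a to d. The log2 fold change of Cx3cr1, 0.34, turned to -0.23 without Nnmt KO library a.

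The list of cytokine and NF-κB genes had 16 genes, of which 15 were tested. None passed an adjusted p of 0.05 by edgeR's test, 1 was higher and 1 lower at an unadjusted p under 0.05, and DESeq2's test called 1. The shares over all tested genes were 5.45%, 7.13% and 3.35%. The higher one was Vcam1, an adhesion molecule for lymphocytes and monocytes. It was at 22.6, 42.5, 28.5 and 39.7 CPM in control libraries a to d and at 57.8, 45.6, 56.4 and 58.7 CPM in Nnmt KO libraries a to d, without overlap. Between genotypes its log2 fold change was 0.71 (SE 0.19, adjusted p = 0.125 in edgeR's test and 0.0163 in DESeq2's, in a range of 0.0163 to 0.314 over all alternatives). The lower one was Nfkb2, a subunit gene of the non-canonical NF-κB route, with a log2 fold change of -0.38 (adjusted p = 0.391 in edgeR's test), and with 23.8 ± 3.32 CPM in the control group and 18.2 ± 4.26 CPM in the Nnmt KO group (SD, n = 4 each). The unadjusted p of Nfkb2 stayed under 0.05 in 3 of 12 alternatives, and its log2 fold change was -0.24 without Nnmt KO library d. Rela, the most abundant gene of the list, had 56 ± 6.14 CPM in the control group and 53.1 ± 4.97 CPM in the Nnmt KO group (SD, n = 4 each). Icam1, another adhesion molecule, is named after its values were seen, since it was called without Nnmt KO library a. Its log2 fold change was -0.36 with all libraries (adjusted p = 0.48 in edgeR's test) and -0.63 without library a (adjusted p = 0.0454), in a range of 0.0454 to 0.825 over all alternatives. Il6 had too few counts to be tested. Of the 15 tested genes 11 (73.3%) had a log2 fold change below 0, beside 47.7% of all tested genes, with a list median of -0.12. Without Nnmt KO library a the same count was below 0, beside 50.3% of all tested genes, and the median was -0.29.

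In the interferon gamma axis, 14 of 15 genes were tested. None passed an adjusted p of 0.05 by edgeR's or DESeq2's test, and each test gave 1 gene at an unadjusted p under 0.05, beside 12.6% of all tested genes by edgeR and 14.2% by DESeq2. By edgeR it was Gbp2, an interferon-induced GTPase, with a log2 fold change of 0.43 (adjusted p = 0.315), from 7.88 ± 0.849 CPM in control to 10.6 ± 2.31 CPM in the Nnmt KO group (SD, n = 4 each). The unadjusted p of Gbp2 stayed under 0.05 in 9 of 12 alternatives. Jak1, a kinase of the receptor complex, was the most abundant, with 135 ± 20.2 and 116 ± 7.56 CPM in control and Nnmt KO mice (SD, n = 4 each). Ifng itself had too few counts to be tested. The list median was 0.01, and the genes were split evenly, with 7 above and 7 below 0. The median was -0.16 without Nnmt KO library a, with 4 above and 10 below 0.

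All 10 genes of chemokine cleavage and presentation were tested, and none passed an adjusted p of 0.05 by edgeR's or DESeq2's test, while each test gave 1 gene at an unadjusted p under 0.05. Such a p was found for 12.6% of all tested genes by edgeR, and the libraries did not overlap for 2 of the 10 genes and for 8.16% of all. By edgeR it was Sdc4, a heparan sulfate proteoglycan that holds chemokines at the cell surface. It had 188 ± 15.2 CPM in the control group and 158 ± 9.42 CPM in the Nnmt KO group (SD, n = 4 each), without overlap, and a log2 fold change of -0.25 (adjusted p = 0.356 in edgeR's test). The unadjusted p of Sdc4 stayed under 0.05 in 6 of 12 alternatives. The other gene without overlap was Ext1, a heparan sulfate polymerase, named for that reason after its values were seen, with 53.9 ± 3.11 and 47.3 ± 2.14 CPM (SD, n = 4 each) and a log2 fold change of -0.19. Sdc1 was the most abundant, with 337 ± 56.6 CPM in the control group and 402 ± 71.8 CPM in the Nnmt KO group (SD, n = 4 each).

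Markers of 10 cell types were summed in each library to show which cells the samples held. The hepatocyte sum was 106268 ± 16813 CPM in the control group and 110185 ± 23370 CPM in the Nnmt KO group (SD, n = 4 each) and was led by Alb, so the defining markers of the labelled tissue were present. The T and NK cell sum was 5.64, 5.49, 4.67 and 6.33 CPM in control libraries a to d and 8.33, 9.4, 7.58 and 6.71 CPM in Nnmt KO libraries a to d, without overlap. Of its 11 genes, 3 were higher at an unadjusted p under 0.05, and their libraries did not overlap, beside 5.45% and 8.16% of all tested genes. They were Cd8a, Cd3g and Gzma, named after their values were seen, with log2 fold changes of 1.44, 1.17 and 1.26 and adjusted p-values of 0.106, 0.194 and 0.171 in edgeR's test. The other 8 genes of the list had log2 fold changes from -0.27 to 0.84. Cd3d and Cd3e, subunits of the same receptor complex as Cd3g, had log2 fold changes of -0.27 and 0.08, and the NK cell genes Ncr1 and Klrb1c had -0.23 and 0.05, all 4 named after their values were seen. DESeq2's test called Cd8a, Cd3g and Gzma, with adjusted p-values of 0.00342, 0.0419 and 0.0278, where the alternatives reached up to 0.289, 0.486 and 0.404. That test called 1.42% of all tested genes as higher. Each had a mean under 1 CPM in both genotypes, and the most abundant gene of the list was Cd4 (1.08 CPM). The part of these cells in the values of the chemokines, the Cxcr3 ligands included, was not tested.

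The B and plasma cell sum was 22.8, 22.3, 17.6 and 21.6 CPM in control libraries a to d and 20.6, 33.7, 37.8 and 40.2 CPM in Nnmt KO libraries a to d. Nnmt KO library a lay among the control libraries, and the other 3 were above them. Of its 7 genes, Igkc, the most abundant, and Jchain, named after its values were seen, were higher at an unadjusted p under 0.05 (5.45% of all tested genes), with log2 fold changes of 0.73 and 1.07 (adjusted p = 0.26 and 0.15 in edgeR's test). Without Nnmt KO library a both were called, with log2 fold changes of 0.95 and 1.28 and adjusted p-values of 0.027 and 0.0358, beside 0.465% of all genes called as higher in that fit. Jchain was also called in DESeq2's test (adjusted p = 0.0193). Over all alternatives the adjusted p reached 0.541 for Igkc and 0.413 for Jchain.

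The sums of the other marker lists overlapped between genotypes. The Kupffer cell and macrophage sum was 607 ± 147 CPM in the control group and 701 ± 97.7 CPM in the Nnmt KO group, with Cd5l on top, and the monocyte sum was 1807 ± 349 and 1674 ± 171 CPM, of which Fn1, which hepatocytes also express, made up 98.6% (SD, n = 4 each). Of the 6 monocyte genes 5 had a log2 fold change above 0 (median 0.29), beside 52.3% of all tested genes. Without Nnmt KO library a 2 did (median -0.09), beside 49.7%. The dendritic cell sum, led by Itgax, was 31.5 ± 11.7 and 30 ± 13.3 CPM, and the sinusoidal endothelial sum, led by Stab2, was 205 ± 60.9 and 195 ± 8.18 CPM (SD, n = 4 each). The stellate cell and fibroblast sum, led by Dcn, was 421 ± 92.4 and 548 ± 164 CPM, and the cholangiocyte sum was 91.9 ± 52.7 and 161 ± 87.4 CPM (SD, n = 4 each). Spp1 made up 81.9% of the cholangiocyte sum. Nnmt KO library a had the highest value of these last 2 sums. Lrat, Reln and Dcn of the 7 stellate cell genes and Epcam of the 5 bile duct genes, named after their values were seen except for Dcn, were higher at an unadjusted p under 0.05 (5.45% of all tested genes), and none passed an adjusted p of 0.05 by edgeR's or DESeq2's test. An unadjusted p under 0.05 stayed in 5 of 12 alternatives for Lrat and in 7 of 12 each for Reln, Dcn and Epcam. For each gene it was lost with several libraries left out, and none of these 4 had it without Nnmt KO library a. There the log2 fold change of Epcam went from 0.80 to 0.55. The log2 fold change went from 0.34 to 0.27 for Lrat, from 0.41 to 0.39 for Reln and from 0.41 to 0.34 for Dcn. The other 4 stellate cell genes then lay below 0, among them Col1a1 (-0.49) and Col3a1 (-0.40), also named after their values were seen, and the list median turned from 0.34 to -0.07. The stellate cell sum then had an Nnmt KO mean of 466 CPM and the cholangiocyte sum one of 122 CPM. Their part in the chemokine values was not tested.

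**Figure D3:**
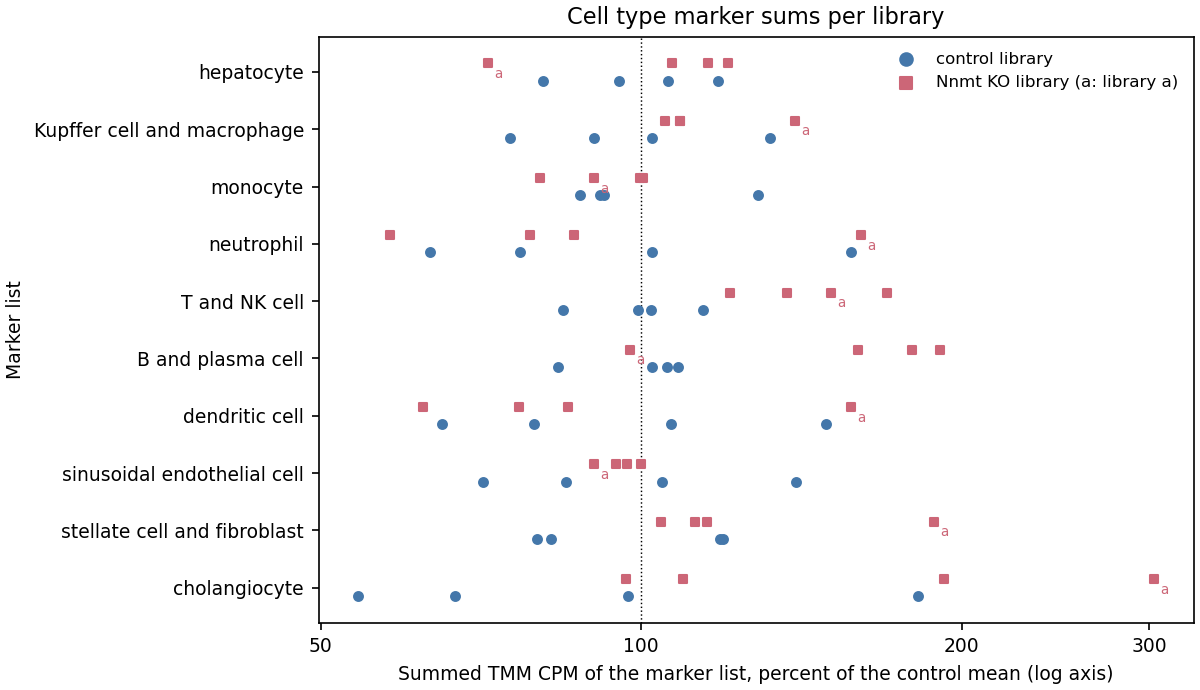
Summed CPM of each cell type marker list in each library, as percent of the control mean on a log axis, with circles for control and squares for Nnmt KO libraries and the letter a for Nnmt KO library a. The T and NK cell sums of the Nnmt KO libraries (121% to 170%) lie above those of the control libraries (84.3% to 114%), and Nnmt KO library a lies at 303% for the cholangiocyte list. Spp1 makes up 81.9% of the cholangiocyte sum.

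The genes most like Cxcl12 and Cxcl1 in their pattern within genotypes were looked up among 12219 tested genes with at least 1 CPM on average, outside the chemokine ligands. After the mean of each genotype was subtracted, the log2 CPM of Cxcl12 over the 8 libraries correlated most with Acot7 (Pearson r = 0.993), Aqp8 (r = 0.992) and Abcb8 (r = 0.99). Those most like Cxcl1 were Ctla2b (r = 0.97), Vamp3 (r = 0.947) and Tor3a (r = 0.946). These r values, each over n = 8 libraries, are the highest of 12219 and are given as a description, since high values are found by such a search in 8 libraries. They leave out the difference between genotypes. The log2 fold changes of Ctla2b, Vamp3 and Tor3a were 0.43, 0.22 and 0.65, opposite in sign to that of Cxcl1 (-0.96). Those of Acot7, Aqp8 and Abcb8 were 0.30, -0.85 and -0.31, beside 0.03 for Cxcl12.

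The promoter windows of Cxcl1, Cxcl2, Cxcl9 and Cxcl10 are shown because Cxcl1 passed the test and Cxcl10 had an unadjusted p under 0.05, each beside its neighbour on the chromosome. Of the 10 genes, 7 had an entry in RefSeq's promoter table (GRCm38.p6), and Ccl2, Ccl5 and Cxcl16 were not matched. The 250 bases before each start were searched on both strands for an NF-κB-like motif (GGNNNTTCC) and an ISRE-like motif (GAAANNGAA). The motifs could share bases, as both hold GAA or its reverse complement TTC. The NF-κB-like letters were found in 4 of the 7 windows (Ccl9, Cxcl1, Cxcl9 and Cxcl10) and in 15.7% of 32851 promoters. The ISRE-like letters were found in 2 (Cxcl9 and Cxcl10) and in 7.13% of all promoters. Capitals mark the motif matches, and each window is written 5′ to 3′ on the strand of its gene.
Cxcl1 (chr5:90890995-90891244, plus strand): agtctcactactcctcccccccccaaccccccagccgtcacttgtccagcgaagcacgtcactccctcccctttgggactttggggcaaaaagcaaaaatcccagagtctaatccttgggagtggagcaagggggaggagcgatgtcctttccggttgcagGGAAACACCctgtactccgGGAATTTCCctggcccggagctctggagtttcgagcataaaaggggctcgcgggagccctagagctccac
Cxcl2 (chr5:90903649-90903898, plus strand): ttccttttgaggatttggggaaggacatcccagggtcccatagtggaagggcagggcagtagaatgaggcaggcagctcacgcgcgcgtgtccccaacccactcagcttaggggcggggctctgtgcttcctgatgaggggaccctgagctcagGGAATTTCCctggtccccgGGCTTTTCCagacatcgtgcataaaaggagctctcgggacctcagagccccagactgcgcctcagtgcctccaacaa
Cxcl9 (chr5:92328080-92328329, minus strand): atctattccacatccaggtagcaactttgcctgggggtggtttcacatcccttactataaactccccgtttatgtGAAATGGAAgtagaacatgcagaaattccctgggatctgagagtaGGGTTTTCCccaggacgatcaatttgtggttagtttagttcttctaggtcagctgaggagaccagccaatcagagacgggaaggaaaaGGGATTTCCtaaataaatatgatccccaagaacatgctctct
Cxcl10 (chr5:92348890-92349139, minus strand): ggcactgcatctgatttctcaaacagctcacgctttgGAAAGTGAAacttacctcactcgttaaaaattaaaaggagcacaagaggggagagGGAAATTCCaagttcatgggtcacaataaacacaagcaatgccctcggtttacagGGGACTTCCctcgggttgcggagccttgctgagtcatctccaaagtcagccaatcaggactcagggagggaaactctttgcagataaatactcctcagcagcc
Cxcl1 and Cxcl2 each held 2 NF-κB-like matches and shared a run of 14 bases, gggaatttccctgg, which begins 71 bases before the start of Cxcl1 and 97 bases before that of Cxcl2. Cxcl9 and Cxcl10 each held 2 NF-κB-like matches and 1 ISRE-like match, the latter 175 bases before the start of Cxcl9 and 213 bases before that of Cxcl10. GENCODE places the starts of Cxcl1 (90891241) and Cxcl2 (90903871) inside the windows shown, so the distances here are those from RefSeq's starts. A match describes the letters in the window and not a bound factor.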

How the data were processed

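Liver RNA-seq libraries of 4 Nnmt KO and 4 control mice were used. The authors deposited raw counts for each gene, made with HISAT2 and StringTie on mm10 per the submitters' processing notes, and whether the counting used strand is not given in the sources used here. The sources name 2 library kits (NEBNext Ultra in the labels, KAPA HyperPrep in the methods). Low genes were removed with edgeR's filterByExpr at a minimum count of 10, and the rest were normalized by TMM and tested by edgeR's quasi-likelihood test (edgeR 4.0.16, R 4.3.3) with Benjamini-Hochberg adjustment over 15291 genes, and the standard error is the one implied by the F statistic. The steps were tested on simulated data, in which no library stood apart in its gene levels as Nnmt KO library a did here. No 2 libraries of a genotype were copies, with a chi-square per degree of freedom of 42.2 to 263. The p-values measure the spread between 4 libraries per genotype, which the labels list as separate samples.

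Listed genes were matched by Ensembl identifier, and positions and exon lengths were taken from GENCODE M21 (GRCm38), which held 15146 of the 15291 genes. The members and lists were chosen with earlier results of these data known. Named are Nnmt, the 10 genes, in each other list the genes passing an adjusted p of 0.05, the 2 with the smallest unadjusted p under 0.05 in each direction and the most abundant one, in each marker list the most abundant gene and those passing an adjusted p of 0.05, and the 3 genes of highest correlation (log2 CPM, prior count 2). The text says which other genes were picked once their values were seen. The values of 1 of the 20 tested chemokine receptors, which is counted in its list, and the search for another promoter motif are not reported here. The alternatives were DESeq2's size factors, library size only, DESeq2 1.42.0's Wald test, omitting the low-count filter, leaving out each library, and the longest transcript as the length.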

Additional observations from a re-analysis of the deposited data

Results flagged for a closer look

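A library was looked at again where its gap to the nearest library of its genotype, as a share of that genotype's range, was above Dixon's 95% critical value for 4 values. This was asked of 92 groups of 4 values, of which chance alone gives about 4.6, and 6 were found. The groups did not cover all listed genes. Ccl2 was at 7.65 CPM in Nnmt KO library a and between 2.7 and 3.12 CPM in the other 3 Nnmt KO libraries. Cxcl2 was at 2.83 CPM in the same library and between 0.655 and 0.855 CPM in the others. Its TMM factor was 1.21, beside 0.952 to 0.977. Its summed Kupffer cell and macrophage markers were 847 CPM, beside 639 to 660 CPM, and its summed stellate cell and fibroblast markers were 792 CPM, beside 440 to 485 CPM. The summed monocyte markers of control library b, nearly all Fn1, were 2327 CPM, beside 1582 to 1668 CPM in the other control libraries. So 5 of the 6 values found in these groups belong to Nnmt KO library a. The part of this library in the chemokine values is given by the values without it. Ccr1, outside these groups, was at 5.49 CPM in this library and between 1.1 and 1.41 CPM in the other Nnmt KO libraries.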

How the results depend on the processing

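The count of all genes at an adjusted p under 0.05 was 49, and became 30 with DESeq2's size factors, 22 with library size only, 513 in DESeq2's test, 8 without a filter (20798 genes tested) and 6 to 149 with each library left out (149 without Nnmt KO library a). At an unadjusted p under 0.05 it was 1925, and 1259 (without control library a) to 2194 with each library left out. Of the 10 chemokine genes, 1 passed the adjusted p, 0 with DESeq2's size factors, 0 with library size only, 0 without a filter, and 0 to 1 with each library left out. At the unadjusted p, 2 passed, 1 with library size only, 1 without a filter, and 1 to 3 with each library left out. The causes were not tested. The genotypes did not overlap for 1 of the 10 genes on each of the 3 scales. Of all tested genes this held for 8.16% with TMM, 6.68% with library size only and 8.04% with DESeq2's size factors. The log2 fold change changed sign with libraries left out for Ccl9 (-0.012 to 0.17), Cxcl12 (-0.018 to 0.087), Cxcl16 (-0.27 to 0.10, and 0.042 with library size only), Cxcl14 (-0.30 to 0.23), Cx3cr1 (-0.23 to 0.54), Rela (-0.14 to 0.00033) and Cxcl2 (-0.19 to 1.04), and the cause was not tested. The other 7 chemokine genes and Nnmt kept their direction in 12 of 12 alternatives. With the longest transcript as the length, Ccl5 came before Cxcl10 (ranks 5 and 6), and the other 8 ranks stayed. No paired analysis was possible because the columns of the count table carry no mouse numbers. With 4 libraries per genotype, genes with a mean under 1 CPM had wide errors.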
